A study of Mus musculus with 6 samples.

Results

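The amino acid carriers examined here are 10 genes of the solute carrier families SLC7, SLC3 and SLC1, among 22180 genes with a value on the arrays. They were chosen by name from these families (Slc3a2, Slc7a1, Slc7a2, Slc7a5, Slc7a6, Slc7a7, Slc7a8, Slc7a11, Slc1a4 and Slc1a5), and all 10 were measured. Of these, 8 had 1 probe set that named the gene alone, and Slc7a11 and Slc1a5 had 2, of which the brighter was used. RNA came from cumulus-oocyte complexes (COCs) of wildtype mice, each an immature oocyte with its coat of somatic cumulus cells. Both groups carried the same background treatment: the mice had received 5 IU of equine chorionic gonadotropin (eCG) 46 h earlier, and the complexes, 100 to a group, were kept in MEM-alpha with bovine serum albumin at 3 mg/ml and milrinone at 5 µM, a drug that blocks the phosphodiesterase PDE3 and holds the oocyte in meiotic arrest. The 3 control arrays were from complexes given the solvent DMSO and the 3 treated arrays from complexes given 5 µM Torin1, an inhibitor of the kinase MTOR. The labels put the mice at 21 days of age in the growth protocol and at 23 days in the characteristics, and the culture at 14 h in the sample source and at 16 h in the growth protocol.

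Amino acids cross the plasma membrane on carriers with overlapping substrates. Most SLC7 light chains named here reach the surface only when joined by a disulfide bridge to the heavy chain that Slc3a2 encodes (4F2hc or CD98). They work as exchangers, so 1 amino acid enters as another leaves. The cationic carriers Slc7a1 and Slc7a2 need no heavy chain, and the SLC1 members are sodium-dependent exchangers of small neutral amino acids. In the follicle, cumulus cells take up several amino acids and pass them to the oocyte through gap junctions. Imported leucine and arginine are signals that activate MTOR complex 1.

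Levels are given as log2(intensity + 1) and changes as Torin1 minus DMSO on that scale with their standard error (SE). A gene was called at an adjusted p below 0.05 in limma, with Benjamini-Hochberg adjustment over all 22180 genes. Array medians lay between 11.1 and 11.97 intensity units. Differences between arrays of one group had an SD over genes of 0.20 to 0.24, except that Torin1 sample 3 differed from Torin1 samples 1 and 2 by 0.33 and 0.35. Because Torin1 sample 3 stood apart, members are given without it where leaving it out ends or adds a call or turns a direction. Lists are given without it where a count or median clearly moves. Other named genes are not all given without it. All 15 oocyte markers and all 9 measured cumulus and granulosa markers had a mean at or above the median gene of 4.17, while 7 of 8 leukocyte markers were below it.

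With Torin1, 3 of the 10 carriers rose, 0 fell and 7 were not called. Those that rose were Slc7a8, Slc3a2 and Slc7a11, at 3.25-fold, 2.27-fold and 2.22-fold on the log2(intensity + 1) scale. Over all genes, 5.13% were called higher and 6.94% lower, or 12.1% in either direction. The members' changes ran from -0.62 for Slc7a5 to 1.70 for Slc7a8, with 7 above 0 and a median of 0.26 (0.11 without Torin1 sample 3, and 0.40 without Torin1 sample 1), against a median of 0.0098 over all genes. At an unadjusted p below 0.05 in the same limma fit, 5 members were higher and 1, Slc7a5, was lower, where 11.3% of all genes were higher and 12.7% lower. The Torin1 values lay wholly above the DMSO values in 5 members and wholly below in 0, and the groups overlapped in the other 5. Over all genes, 14.3% lay wholly above and 14.3% wholly below. Without Torin1 sample 3, 1 member was called lower, Slc7a5 (-0.80 ± 0.19 SE, adjusted p = 0.0374), and the same 3 members were called higher.

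**Figure D1:**
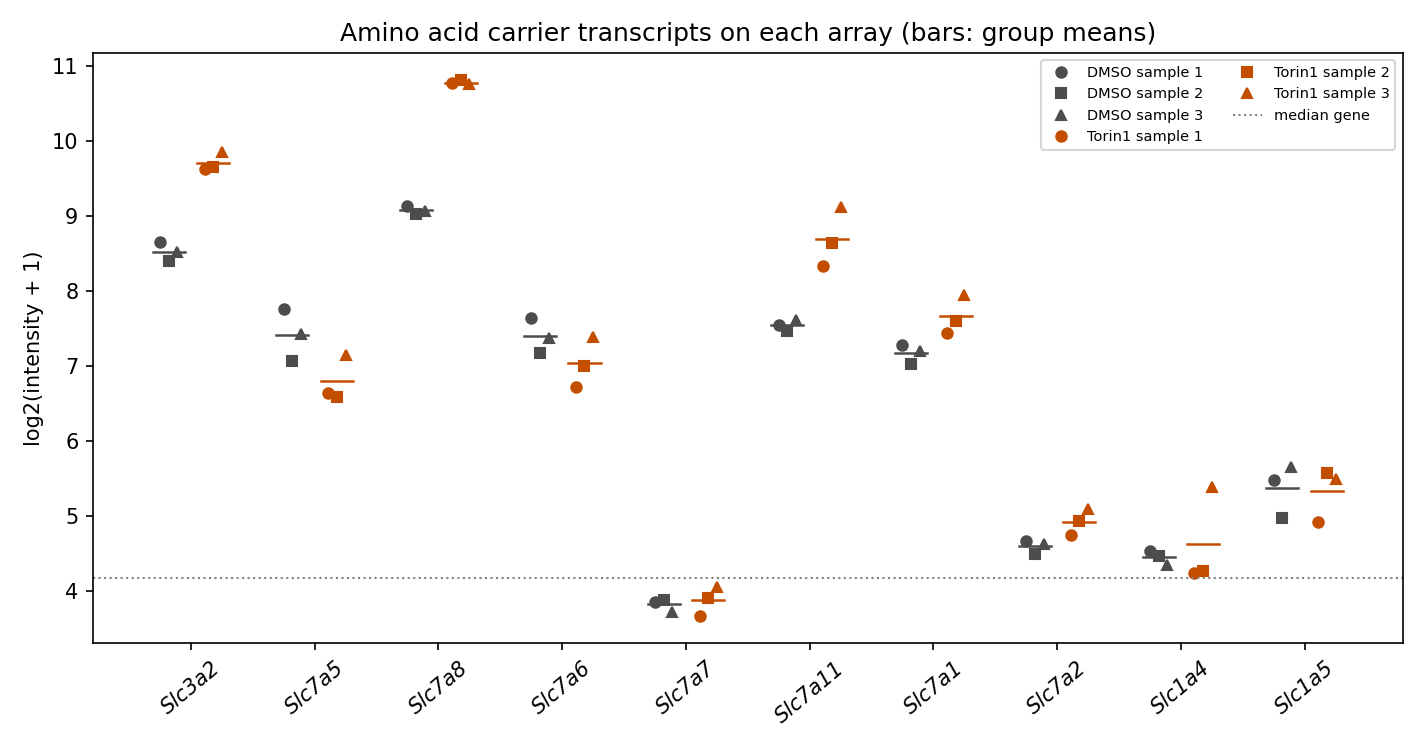
Levels of the 10 carriers on each of the 6 arrays as log2(intensity + 1), with DMSO in grey, Torin1 in orange, a symbol for each sample number, short bars for group means and a dotted line at the median gene. The Torin1 values of Slc3a2, Slc7a8, Slc7a11, Slc7a1 and Slc7a2 lie above all DMSO values of the same gene, and Torin1 sample 3 stands alone at 5.39 in Slc1a4. Heights of different genes are not comparable, since each probe set has its own response.

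The heavy chain gene Slc3a2, on whose product the light chains of Slc7a5, Slc7a6, Slc7a7, Slc7a8 and Slc7a11 depend, rose with Torin1. Slc3a2 read 8.66, 8.39 and 8.51 in DMSO samples 1 to 3, and 9.62, 9.64 and 9.85 in Torin1 samples 1 to 3. Every Torin1 array was above every DMSO array, with no overlap. The rise was 1.18 ± 0.10 (SE, n = 3 each; limma adjusted p = 0.000704). It was called in each of the 6 fits with 1 array left out, with changes of 1.11 to 1.25.

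The L-type light chains Slc7a8 (LAT2) and Slc7a5 (LAT1), which exchange large neutral amino acids such as leucine, had changes of opposite sign, of which the rise of Slc7a8 was called. Slc7a8 read 9.13, 9.02 and 9.06 in DMSO and 10.76, 10.81 and 10.75 in Torin1. Its Torin1 arrays agreed to within an SD of 0.032 (n = 3), and Torin1 sample 3 did not stand apart in this gene. The rise of 1.70 ± 0.070 (SE) had an adjusted p of 5.5e-05 in limma and ranked 144th among rises of all genes. Slc7a5 read 7.76, 7.06 and 7.42 in DMSO and 6.64, 6.59 and 7.14 in Torin1, so that Torin1 sample 3 lay above DMSO sample 2. Its change of -0.62 ± 0.21 (SE) was not called (adjusted p = 0.118; 95% interval of the change -1.12 to -0.12, unadjusted).

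The difference between the LAT2 and LAT1 changes was 2.33 (SD of the within-array difference 0.30 in DMSO and 0.33 in Torin1, n = 3 each). For Slc3a2 against Slc7a5 the corresponding difference was 1.80 (SD 0.22 and 0.18). Both are descriptions with no test, since the pairs set the members that rose against the one with the lowest change.

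**Figure D2:**
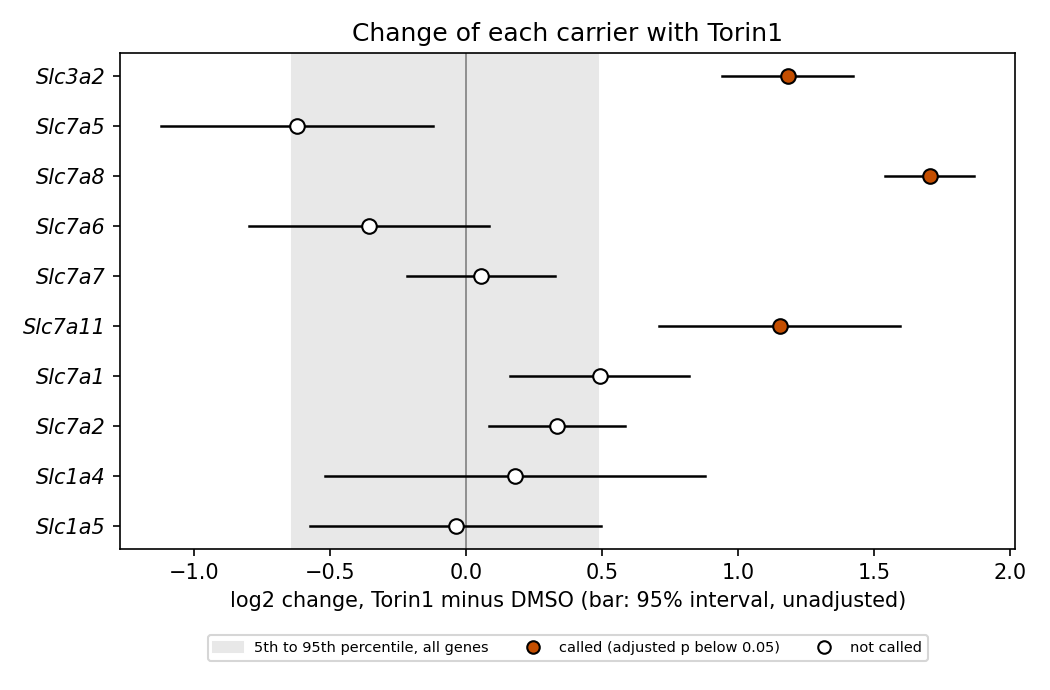
Log2 change of each carrier, Torin1 minus DMSO, with its unadjusted 95% interval from the limma fit; filled points were called and the grey band spans the 5th to 95th percentile of all genes, -0.64 to 0.48. Slc7a8, Slc3a2 and Slc7a11 lie beyond the band with their whole interval, and the other 7 points are open.

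Neither y+L light chain was called. These carriers, Slc7a6 (y+LAT2) and Slc7a7 (y+LAT1), release cationic amino acids in exchange for neutral ones and sodium. Slc7a6 read 7.63, 7.17 and 7.37 in DMSO and 6.72, 6.99 and 7.38 in Torin1. The first 2 Torin1 samples were below all DMSO samples, whereas Torin1 sample 3 lay among them, and the change was -0.36 ± 0.19 (SE, adjusted p = 0.316). Without Torin1 sample 3 it was -0.53 ± 0.15 (adjusted p = 0.0709). Slc7a7 was dim, with a mean below the median gene, at 3.85, 3.88 and 3.72 in DMSO and 3.66, 3.91 and 4.06 in Torin1. Its change of 0.055 ± 0.12 (adjusted p = 0.871) had a 95% interval of -0.22 to 0.33, and was -0.037 ± 0.11 without Torin1 sample 3 (adjusted p = 0.913).

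Slc7a11 encodes xCT, the light chain that brings in cystine in exchange for glutamate and so feeds glutathione synthesis. It read 7.54, 7.47 and 7.61 in DMSO and 8.32, 8.64 and 9.11 in Torin1. The DMSO arrays lay close together (SD 0.074, n = 3) and the Torin1 arrays were more spread (SD 0.40, n = 3), all of them above DMSO. The rise was 1.15 ± 0.19 (SE, adjusted p = 0.00898), and 0.94 ± 0.11 without Torin1 sample 3 (adjusted p = 0.00278). A second, dim probe set of Slc7a11 read 3.11, 3.09 and 2.74 in DMSO and 3.19, 3.27 and 5.30 in Torin1, so that Torin1 sample 3 stood alone. That probe set was not called (0.94 ± 0.56, adjusted p = 0.488 over all 41345 probe sets), and with both probe sets averaged Slc7a11 lost its call (1.05 ± 0.35, adjusted p = 0.113).

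The stretches upstream of the 3 genes that rose are shown because carriers of this group, xCT above all, are known targets of ATF4, a transcription factor of the amino acid response. Each is the 250 bases before a start in RefSeq (GRCm38.p6), 5' to 3' on the gene's strand, with capitals for the ATF4 response core TGATGNAA on either strand and for the other motifs searched. They are Slc7a11 (chr3:50443614-50443863, minus strand), Slc3a2 (chr19:8713898-8714147, minus strand) and Slc7a8 (chr14:54781887-54782136, minus strand).
Slc7a11: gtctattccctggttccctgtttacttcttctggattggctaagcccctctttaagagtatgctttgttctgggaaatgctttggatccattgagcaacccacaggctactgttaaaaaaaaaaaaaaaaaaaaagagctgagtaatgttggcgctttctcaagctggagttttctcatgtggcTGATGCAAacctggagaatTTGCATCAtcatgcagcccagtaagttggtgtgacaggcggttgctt
Slc3a2: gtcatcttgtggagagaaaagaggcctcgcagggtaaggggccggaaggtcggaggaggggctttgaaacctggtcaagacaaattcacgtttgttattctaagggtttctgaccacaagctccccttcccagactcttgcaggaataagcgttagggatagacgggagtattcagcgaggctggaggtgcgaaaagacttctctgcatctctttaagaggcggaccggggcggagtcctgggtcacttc
Slc7a8: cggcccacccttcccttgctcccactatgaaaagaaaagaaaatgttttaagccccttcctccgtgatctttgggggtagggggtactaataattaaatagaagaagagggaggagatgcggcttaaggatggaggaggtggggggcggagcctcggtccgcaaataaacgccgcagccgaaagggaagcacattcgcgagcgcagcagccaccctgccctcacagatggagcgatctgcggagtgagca

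The Slc7a11 window held the core at 2 places, from -66 to -59 on the gene's strand and from -47 to -40 on the other strand, with -1 as the base before the start. At least 2 matches were found in 0.07% of the 32851 windows of 300 bases in the table (250 before each start and 50 from it), and at least 1 in 3.97%. By gene, 3 of the 7 members in the table had a match in at least 1 window (Slc7a11, Slc1a4 and Slc7a7), against 4.51% of 27025 genes. A gene with more starts has more windows to match: Slc7a7 had 5, and Slc7a11 and Slc1a4 had 1 each. The window at the first Slc7a7 start also held 2, from -141 to -134 and from -1 to 7, and that of Slc1a4 held 1, from -4 to 4, so that 2 of these matches span a start. The matches across the start are shown in 30 bases each as a comparison with Slc7a11, for Slc1a4 at chr11:20332699-20332728 and for Slc7a7 at chr14:54417927-54417956, both on the minus strand.
Slc1a4: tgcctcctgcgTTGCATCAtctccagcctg
Slc7a7: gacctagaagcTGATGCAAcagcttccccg

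Of the genes with this core, Slc7a11 rose, and Slc1a4 and Slc7a7 were not called; Slc3a2 and Slc7a8 rose with no match in their windows. By gene again, the antioxidant response core TGACNNNGC was found in Slc7a1 and Slc7a6 (13.99% of 27025 genes). The cAMP response element core TGACG was found in Slc7a1, Slc7a6 and Slc1a4 (23.05% of genes), and the E-box CACGTG in 0 of the 7 members (8.09% of genes). Both strands were searched, and in Slc7a6 the TGACG match lies within the TGACNNNGC match. A match describes letters in the window and not a site in use.

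The cationic carriers Slc7a1 (CAT1) and Slc7a2 (CAT2), which import arginine and lysine, had Torin1 values above all DMSO values but were not called. Slc7a1 read 7.28, 7.03 and 7.20 in DMSO and 7.44, 7.60 and 7.94 in Torin1. Its change was 0.49 ± 0.14 (SE, adjusted p = 0.0694, and 0.054 to 0.20 with 1 array left out). It passed the threshold among genes above the median level (adjusted p = 0.0474) and with a trended, robust eBayes fit (adjusted p = 0.0495). Slc7a2 read 4.66, 4.50 and 4.62 in DMSO and 4.74, 4.94 and 5.09 in Torin1. Its change was 0.33 ± 0.11 (SE, adjusted p = 0.0986).

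The SLC1 members Slc1a4 (ASCT1), a carrier of serine, alanine and cysteine, and Slc1a5 (ASCT2), a carrier of glutamine, were not called. Slc1a4 read 4.54, 4.47 and 4.34 in DMSO and 4.24, 4.26 and 5.39 in Torin1. Torin1 samples 1 and 2 were thus below every DMSO sample and Torin1 sample 3 above every one of them, and the change of 0.18 ± 0.30 (SE, adjusted p = 0.824) became -0.20 ± 0.090 without sample 3 (adjusted p = 0.238). Slc1a5 read 5.47, 4.98 and 5.66 in DMSO and 4.92, 5.57 and 5.50 in Torin1, with full overlap. Its change was -0.039 ± 0.23 (adjusted p = 0.960; 95% interval -0.57 to 0.50), an interval wide enough to hold a change of either sign. A second probe set of Slc1a5 was dim and gave -0.056 ± 0.080.

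**Figure D3:**
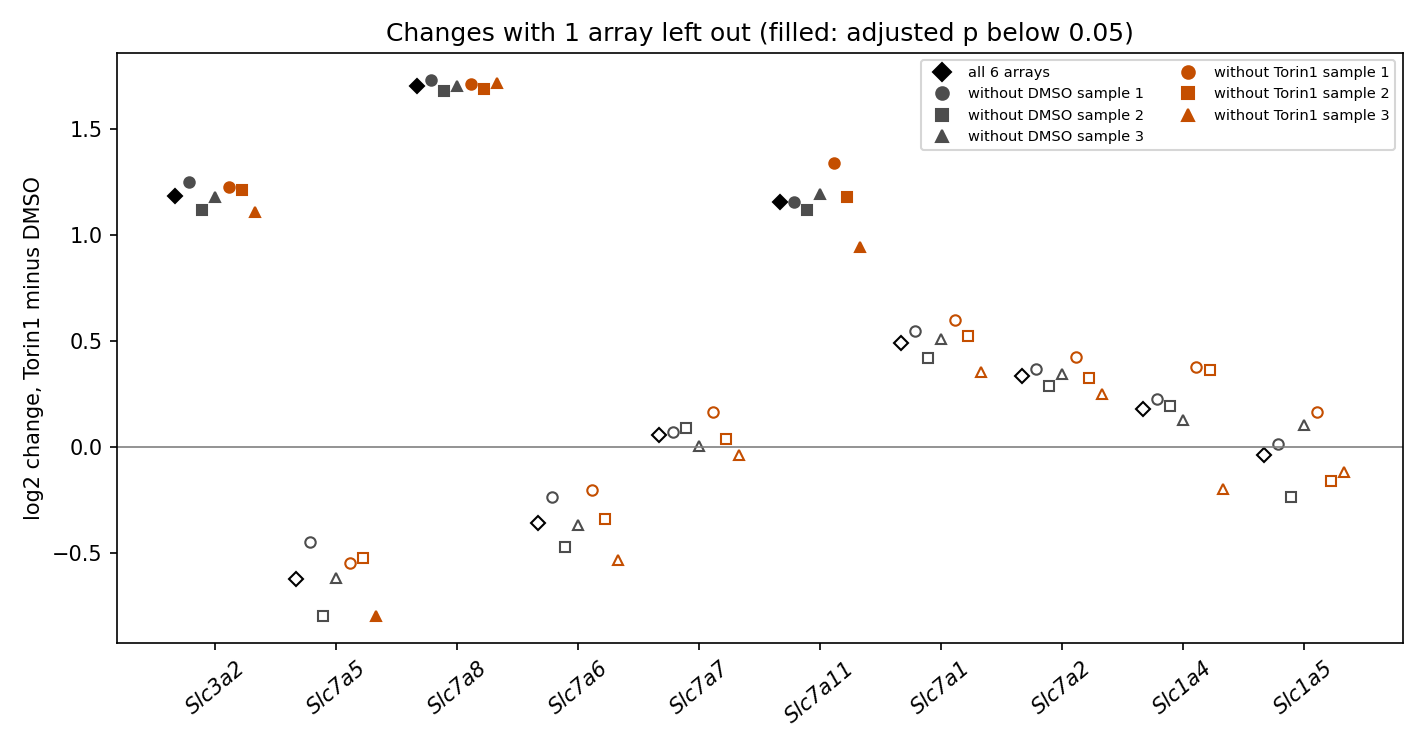
Log2 change of each carrier, Torin1 minus DMSO, with all 6 arrays (black diamond) and with each array left out in turn; filled symbols have an adjusted p below 0.05. Slc7a8, Slc3a2 and Slc7a11 are filled throughout, Slc7a5 is filled in the fit without Torin1 sample 3, and Slc1a4, Slc7a7 and Slc1a5 lie on both sides of 0.

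Torin1 sample 3 was the highest of the Torin1 arrays in 8 of the 10 carriers and the lowest in 1, Slc7a8. Over all genes it was the highest in 38.8% and the lowest in 34.7%. Its distance above the mean of Torin1 samples 1 and 2 was 1.14 in Slc1a4, 0.63 in Slc7a11, 0.52 in both Slc7a5 and Slc7a6, and 0.42 in Slc7a1. In Slc7a8 it was -0.037. The labels give no batch or date for this array, and its description carries the same short name as that of Torin1 sample 2. With Torin1 samples 2 and 3 taken as 1 sample, 3 carriers were called higher and 0 lower.

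Of 22 regulators and targets of the ATF4 amino acid and stress response, 5 rose, 1 fell and 16 were not called. Over all genes, 5.13% were called higher and 6.94% lower. The fall was Eif2ak2, a kinase gene with a mean below the median gene. The median change of the 22 was 0.37, with 18 changes above 0 and 4 below. Without DMSO sample 1, 2 or 3 in turn 3 were higher, without Torin1 sample 3 it was 8, and 0 were lower without DMSO sample 1, 2 or 3 or Torin1 sample 2. Atf4 itself read 8.43, 8.31 and 8.30 in DMSO and 9.15, 9.18 and 9.44 in Torin1, a rise of 0.91 ± 0.10 (SE, adjusted p = 0.0019). Cebpb and Cebpg, whose products pair with ATF4, rose by 1.36 ± 0.12 and 0.83 ± 0.12, and Atf5 rose too. Among the uncalled genes, Asns changed by 0.0054 ± 0.28 (limma adjusted p = 0.995). It read 6.38, 6.03 and 6.16 in DMSO and 5.73, 5.96 and 6.89 in Torin1. In Asns, Torin1 samples 1 and 2 were thus below every DMSO sample and Torin1 sample 3 above every one of them. Phgdh changed by 0.12 ± 0.17, Psph by -0.44 ± 0.17 and Shmt2 by -0.21 ± 0.13, also uncalled. Ddit3, Trib3, Chac1, Psat1 and Mthfd2 had changes of 0.56 to 0.74 and were not called either. In each of these genes Torin1 sample 3 was the highest Torin1 array. Ppp1r15a, which encodes a phosphatase subunit that reverses the stress response, rose by 0.87 ± 0.21, and lost its call without any 1 DMSO sample or Torin1 sample 2 (adjusted p up to 0.126). Torin1 sample 3 was the highest Torin1 array in 13 of these 22 genes and the lowest in 8, beside 38.8% and 34.7% of all genes. Whether ATF4 took part in the carriers' changes was not tested.

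**Figure D4:**
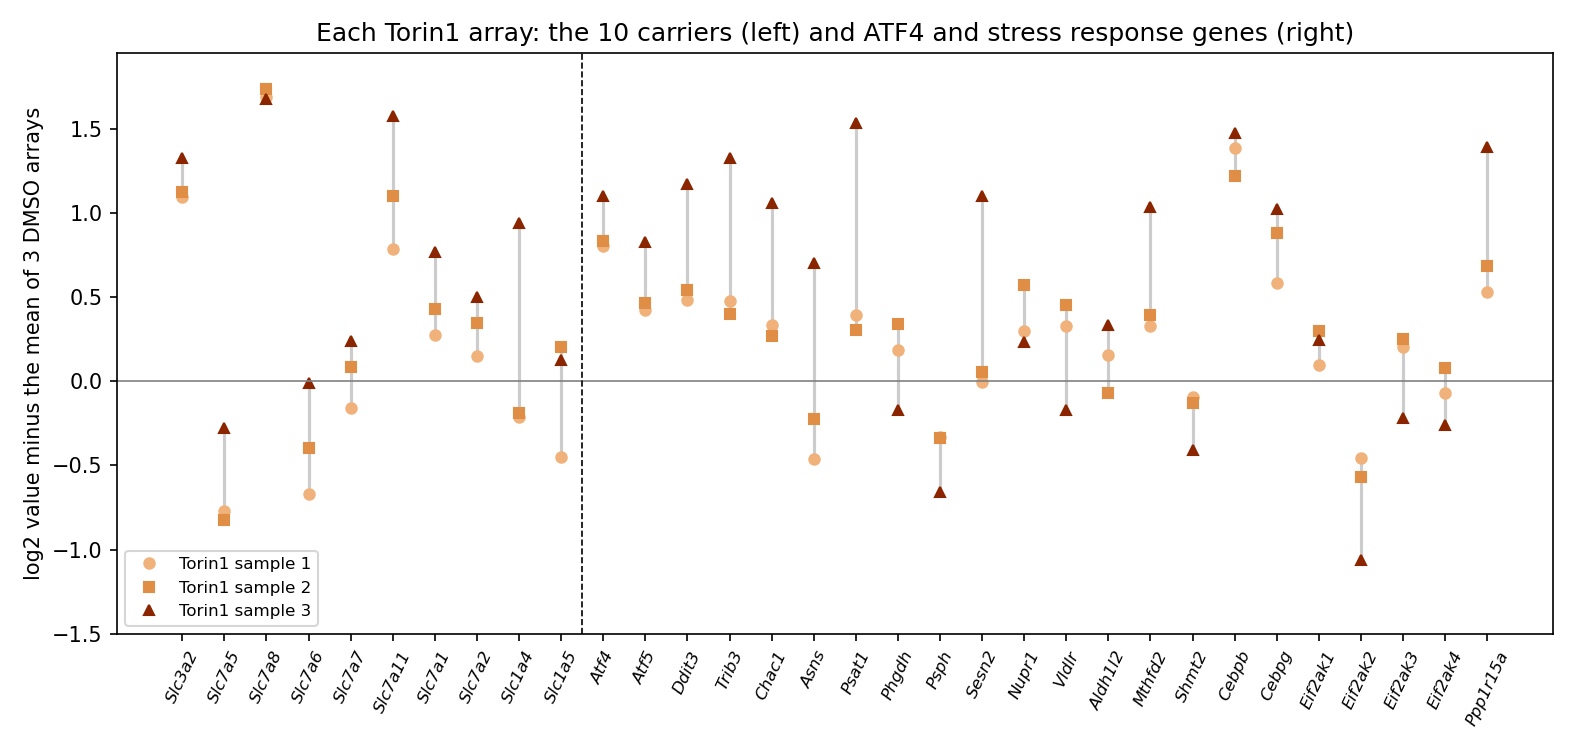
Value of each Torin1 array minus the mean of the 3 DMSO arrays, on the log2 scale, for the 10 carriers (left of the dashed line) and 22 ATF4 and stress response genes (right). Torin1 sample 3, the dark triangle, is the highest in 8 of the 10 carriers and in 13 of the 22 genes. It is the lowest in 1 carrier, Slc7a8, where the 3 arrays lie together, and in 8 of the 22 genes.

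The other members of these carrier families were mostly at the low end of the arrays: 13 of 14 had a mean below the median gene. In limma 0 of the 14 were called in either direction, where 5.13% of all genes were called higher and 6.94% lower. By unadjusted p below 0.05 it was 0 higher and 1 lower, against 11.3% and 12.7% of all genes. The median change was 0.056 (0.0090 without DMSO sample 1, 0.085 without Torin1 sample 1 and 0.016 without Torin1 sample 3). Slc7a4, an orphan relative of the cationic carriers, changed by -0.48 ± 0.13 (SE, adjusted p = 0.054) and was called without Torin1 sample 2 or 3 (adjusted p from 0.0341). Slc7a3, another cationic carrier, changed by 0.43 ± 0.19 (adjusted p = 0.222).

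Carriers of other families at the plasma membrane changed in both directions, and the sodium-coupled carriers of the SLC38 family held the largest falls among the 20 measured. Of 20 measured, 4 rose, 5 fell and 11 were not called, where 5.13% of all genes were called higher and 6.94% lower. The median of -0.016 lay between -0.046 (without DMSO sample 1) and 0.038 (without DMSO sample 2) with 1 array left out, and was -0.038 without Torin1 sample 3. The rises numbered 2 without DMSO sample 2 or 3 or any 1 Torin1 sample, and the falls 3 without DMSO sample 3. The sodium-coupled neutral carriers Slc38a5 and Slc38a4 fell by 3.36 ± 0.21 and 2.98 ± 0.23 (SE; adjusted p = 0.000229 and 0.000479). Slc38a3, a glutamine and alanine carrier of cumulus cells, read 8.06, 5.91 and 5.84 in DMSO and 3.79, 3.71 and 4.80 in Torin1. It was called lower (adjusted p = 0.0411), with a wide spread in DMSO, and lost the call without DMSO sample 2 or 3 or Torin1 sample 1 or 2 (adjusted p up to 0.119). The taurine carrier Slc6a6 rose by 1.10 ± 0.16 (adjusted p = 0.00617). The other calls were Slc6a17, Slc6a20a and Slc16a10, higher, and Slc38a1 and Slc6a15, lower.

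Of 14 lysosomal carriers 0 were called higher and 1 lower in limma, where 5.13% of all genes were called higher and 6.94% lower. By unadjusted p below 0.05 it was 2 higher and 1 lower, against 11.3% and 12.7% of all genes. The median of 0.020 lay between 0.00042 (without DMSO sample 2) and 0.098 (without Torin1 sample 1) with 1 array left out, and was 0.056 without Torin1 sample 3. The call was Slc29a3, a nucleoside carrier, at -0.66 ± 0.17 (SE, adjusted p = 0.0439). It was lost without DMSO sample 2 or 3 or any 1 Torin1 sample (adjusted p up to 0.12). Without Torin1 sample 1, 1 lysosomal carrier was called higher.

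Genes that use the carried amino acids were counted in a list for each kind of use. Beside each count stand the 5.13% of all genes called higher and 6.94% called lower. For cystine and glutathione, 18 genes were measured. Of these 1 was called higher and 3 lower, and the median change was -0.074 (-0.0086 without Torin1 sample 3, and -0.12 without Torin1 sample 1 or 2). Srxn1, which encodes sulfiredoxin, rose by 1.75 ± 0.14 (SE, adjusted p = 0.000479), while Chac2 (a glutathione-degrading enzyme) and Cbs (a step towards cysteine) each fell by 0.64 ± 0.11. Nfe2l2, the gene of the oxidative stress factor NRF2, fell by 0.63 ± 0.13, a call lost without DMSO sample 1 or 3 or Torin1 sample 1 (adjusted p up to 0.0604); the falls then numbered 2. The glutathione synthesis genes Gclc and Gclm were not called. They changed by 0.25 ± 0.23 and -0.39 ± 0.14. Gclc read 7.20, 6.90 and 7.11 in DMSO and 6.96, 7.15 and 7.86 in Torin1. Of its Torin1 values, that of sample 3 alone lay above all DMSO values.

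The arginine and polyamine list held 16 measured genes, of which 2 were called higher and 3 lower, at a median change of 0.12 (0.071 without DMSO sample 1, 0.054 without DMSO sample 3 and 0.046 without Torin1 sample 1). Nos2, the inducible nitric oxide synthase that uses arginine, fell by 1.89 ± 0.11 (SE, adjusted p = 0.000156), from 7.22, 7.04 and 6.88 in DMSO to 5.06, 5.25 and 5.17 in Torin1. Smox, a spermine oxidase gene, rose by 1.26 ± 0.12. Sat1, which encodes a polyamine acetylase, rose by 0.83 ± 0.17, a call lost without DMSO sample 1 or 2 or Torin1 sample 1 or 2 (adjusted p up to 0.0764). Azin2 fell by 1.01 ± 0.23, and kept its call in the fit without DMSO sample 1 but in no other leave-out (adjusted p up to 0.111). The third fall was Oaz1. The falls numbered 1 without DMSO sample 2, DMSO sample 3 or Torin1 sample 2, and 2 in the other leave-outs, and the rises 1 without DMSO sample 1, DMSO sample 2 or Torin1 sample 2.

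Genes of branched-chain amino acid use were called in 1 direction. Of 19 genes 8 were called lower and 0 higher, 17 changes were below 0, and the median was -0.49. At an unadjusted p below 0.05 in limma 13 were lower and 0 higher, against 12.7% and 11.3% of all genes. The falls numbered 5 without DMSO sample 1, 4 without DMSO sample 3 and 4 without Torin1 sample 1. Mccc2 and Ivd, enzymes of leucine breakdown, fell by 1.10 ± 0.15 and 0.86 ± 0.10 (SE), and Ppm1k, the phosphatase that activates the branched-chain dehydrogenase, by 1.03 ± 0.18. Pccb, for a subunit of propionyl-CoA carboxylase, fell by 0.70 ± 0.15 and lost its call without DMSO sample 2 or Torin1 sample 1 or 2 (adjusted p up to 0.0828).

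Among 12 genes that use glutamine, glutamate and other neutral amino acids, 3 were called in each direction and the median change was -0.027. That median was -0.14 without Torin1 sample 3, -0.049 without DMSO sample 2 and -0.0024 without DMSO sample 1, and above 0 without Torin1 sample 1 or 2 (0.0021 and 0.017). Glul, the glutamine synthetase gene, read 6.64, 6.28 and 5.94 in DMSO and 8.16, 7.74 and 9.74 in Torin1. Its rise of 2.26 ± 0.49 (SE, adjusted p = 0.0263) was lost without any 1 DMSO sample or Torin1 sample 1 (adjusted p up to 0.0992), and was 1.67 without Torin1 sample 3. Gfpt2 and Gfpt1, which use glutamine to open the hexosamine route, rose by 1.66 ± 0.13 and 0.68 ± 0.081. Got1, an aspartate transaminase gene, fell by 0.87 ± 0.13, and Got2 and Aldh18a1 fell too. The rises numbered 2 without any 1 DMSO sample or Torin1 sample 1. The falls numbered 1 without DMSO sample 3 and 2 in the other leave-outs.

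**Figure D5:**
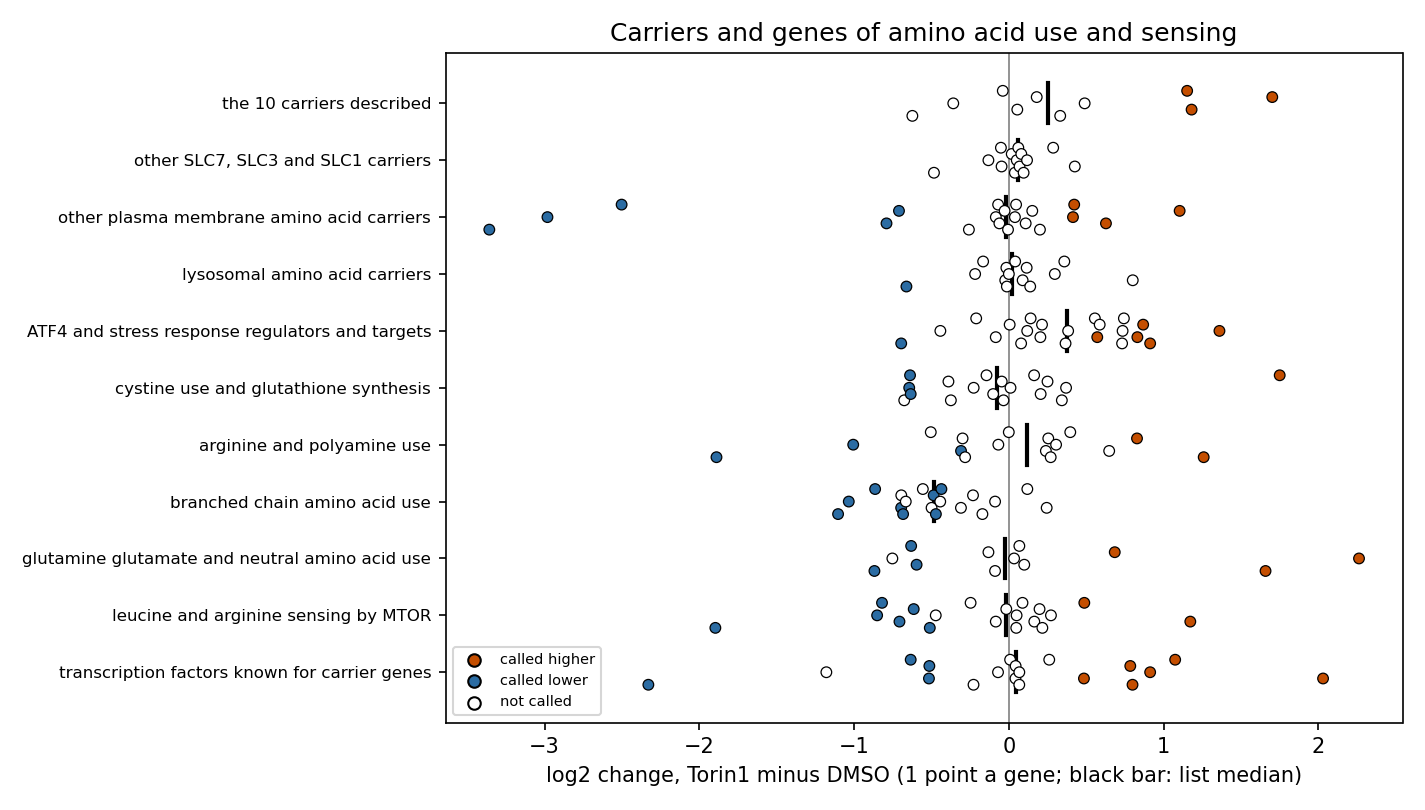
Log2 change, Torin1 minus DMSO, of each measured gene in the 10 carriers and in 10 lists of related genes, with called rises in orange, called falls in blue, uncalled genes open and a black bar at each median. The 10 carriers hold 3 rises and 0 falls, and branched-chain amino acid use holds 8 falls and 0 rises.

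Among genes that relay leucine and arginine to MTOR, 2 of 19 rose, 6 fell and 11 were not called. Over all genes, 5.13% were called higher and 6.94% lower. The median change of the 19 was -0.017. With 1 array left out the median lay between -0.13 (without Torin1 sample 2) and 0.028 (without Torin1 sample 3), and it was above 0 also without Torin1 sample 1 (0.017). Wdr59, a subunit of the GATOR2 complex, fell from 8.03, 8.05 and 7.97 to 6.15, 6.10 and 6.12, or by 1.90 ± 0.068 (SE, adjusted p = 3.9e-05). Sesn1, a leucine-sensing sestrin gene, and Depdc5, of the GATOR1 complex, fell by 0.82 ± 0.14 and 0.85 ± 0.15. Of these, Sesn1 was dim, with a mean below the median gene. Rragd, a Rag GTPase gene, rose by 1.17 ± 0.13, and Rragc rose too. The falls numbered 3 without DMSO sample 1 or 3 or Torin1 sample 1, and 4 without DMSO sample 2 or Torin1 sample 2. The rises numbered 1 without any 1 DMSO sample or Torin1 sample 2, and 3 without Torin1 sample 3.

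Of 19 transcription factors known to act on carrier genes, 6 were called higher and 4 lower, beside 5.13% and 6.94% of all genes. The median change was 0.044 (0.11 without DMSO sample 1, 0.021 without DMSO sample 2 and 0.025 without DMSO sample 3). Jun and Bach1 rose by 2.03 ± 0.15 and 1.07 ± 0.17 (SE), as did Atf4, and Epas1 fell by 2.33 ± 0.16; Nfe2l2, Maf and Mlxip fell too. Myc, a regulator of LAT1 and ASCT2 genes in other cells, read 8.04, 7.63 and 7.52 in DMSO and 6.07, 5.76 and 7.82 in Torin1. It was not called (-1.18 ± 0.50, adjusted p = 0.210), with Torin1 sample 3 among the DMSO values as in Slc7a6, and is shown for that array pattern, chosen after its values were seen. The falls numbered 2 without DMSO sample 1 or 3 or Torin1 sample 1. They numbered 3 without DMSO sample 2 or Torin1 sample 2, and 5 without Torin1 sample 3.

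Cell type markers moved with the treatment too, beside 5.13% of all genes called higher and 6.94% called lower. Of 9 cumulus and granulosa markers 8 were lower with Torin1 and 1, Inhba, was higher (2.06 ± 0.21 SE, limma adjusted p = 0.00144). The summed intensity of all 9, Inhba included, was 3494 to 3733 in DMSO and 2112 to 2559 in Torin1. Of 15 oocyte markers 2 were higher and 0 lower, with sums of 6868 to 7313 and 7614 to 8412. Of 9 theca and stroma markers 3 were lower (Acta2, Ptch1 and Pdgfra), with sums of 603 to 750 and 243 to 266, and the means of Cyp17a1, Dcn, Lum and Col1a2 were below the median gene. Of 6 endothelial markers 1 was higher (Cdh5), with sums of 104 to 109 and 151 to 268, and of 8 leukocyte markers 1 was higher (Cd68), with sums of 75.9 to 83.1 and 88.2 to 92.7. The arrays read oocyte and cumulus RNA together, so fewer cells of a type and less RNA per cell cannot be told apart, nor can the cell type in which a carrier changed. The part of these markers in the carriers' results was not tested.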

How the data were processed

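RNA from 3 DMSO and 3 Torin1 samples, grouped by their titles, was amplified (NuGEN Ovation Pico WTA) and measured on Affymetrix arrays. The deposited intensities are 1 linear value per probe set and array, from 2.25 to 3268, and the submitters' processing notes name RMA, GCOS and version 1.1 of Affymetrix Expression Console. No source used here gives their settings. Where RMA brings arrays to one distribution, a gene's change is read against that of the rest. Precision is limited by how few arrays there are.

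Of 41345 probe sets, 23521 named 1 gene, 1814 named several and 16010 were unnamed here. The brightest probe set of each gene by its mean over 6 arrays was kept (22180 genes), and log2(intensity + 1) was compared two-sided between the groups by lmFit and eBayes (limma 3.58.1, R 4.3.3), with dim genes kept and no other term. Benjamini-Hochberg adjustment ran over all genes. On this scale a fold change of a dim gene is understated. The fit was tested on simulated data. Entrez identifiers of 23328 probe sets matched RefSeq's gene table for GRCm38.p6, and promoters came from RefSeq of that assembly.

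The members and lists were chosen with earlier results of these data known. Of each list, up to 4 called genes with the largest change were named, or the 2 of lowest p in a list without calls. Atf4 and Nfe2l2, each in 2 lists, count in both. Gclc, Gclm, Myc, the uncalled genes of the ATF4 list and the genes and markers that complete a short count were added after their values were seen. A planned ranking of genes by correlation with a member was not used, because the arrays fall into 2 separate groups. Entries without a probe set naming them alone were not analysed here. The labels do not say whether samples came from separate mice or cultures, so the p-values rest on the spread among these arrays alone, and that may be technical. Alternatives were another pseudocount or none, a filter on dim genes, averaging or separate testing of probe sets, renormalization, another eBayes fit, a replicate block, Torin1 samples 2 and 3 as 1, and leaving out each array.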

Additional observations from a re-analysis of the deposited data

How the results depend on the processing

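Slc3a2 and Slc7a8 kept their call in all 16 alternatives, with changes of 1.11 to 1.25 and 1.67 to 1.73, and Slc7a11 in all but the mean of its probe sets. Leaving out 1 array gave 0 to 1 members called lower, and 1518 to 3083 genes called over the whole table against 2678 (1730, 1763 and 1518 without DMSO sample 1, 2 and 3). The same leave-outs moved the changes of Slc1a4 (-0.20 to 0.38), Slc1a5 (-0.24 to 0.16) and Slc7a7 (-0.037 to 0.16) across 0. With the replicate number of the titles as a replicate block, 1565 genes were called and the same number of members, 3, was higher. The labels name no pairing. Deviations of same-numbered arrays from their group means correlated at -0.21, -0.30 and -0.15 across genes, and no array of either group correlated best with its own number. Higher values were 0.31 for DMSO sample 2 with Torin1 sample 1, 0.30 for DMSO sample 3 with Torin1 sample 2 and 0.11 for DMSO sample 1 with Torin1 sample 3. Deviations of 3 arrays sum to 0 within a group, so these values cannot decide whether arrays were paired in another order. Among the other named genes, 58 calls were lost and 6 gained over all alternatives, and 0 changed direction. With a pseudocount of 16 or none, 2465 and 2672 genes were called. The counts for each list with 1 array left out were computed after the data were seen. The causes of these shifts were not tested. Falls in branched-chain amino acid use, 8 with all arrays, numbered 5 with a pseudocount of 16, 4 with every probe set tested and 2 with the replicate block. Of the members, Slc7a7 had a mean below the median gene, and no measure of signal over background was used.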
